A study of Mus musculus with 10 samples.

Results

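The SLC25 genes encode the mitochondrial carriers, the largest family of solute transporters in the inner mitochondrial membrane. They were taken as every protein-coding gene whose GENCODE symbol starts with Slc25a, which gave 47 of the 56748 gene identifiers in the count tables. RNA was sequenced from whole hearts, atria and ventricles together, with 1 library for each heart. The hearts came from 10 male wild-type C57BL/6 mice bought at 8 weeks of age. The training group was 5 mice run on a motor-driven treadmill for 8 weeks, 5 days a week, at 15 m/min for 120 min a day. The other 5 mice were age-matched and sedentary. Each library was a separate animal without a transgene, and the hour of tissue collection is not given in the sources used here. Per the methods, mice of the trained and control groups were imaged under isoflurane after an injection of labelled glucose, before the hearts were harvested.

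Most of the carriers move a particular set of metabolites between the cytosol and the mitochondrial matrix: ADP and ATP, phosphate, di- and tricarboxylates, amino acids, acylcarnitines, nucleotides, cofactors or iron. Heart muscle relies on them for the export of ATP, for the entry of fatty acids as acylcarnitines, and for the malate-aspartate shuttle, which carries reducing equivalents from the cytosol. All are coded in the nucleus and made in the cytosol, and those of the inner membrane are inserted by a dedicated import route.

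Of the 47 genes, 40 passed the low-count filter and were tested, and 5 of these were called, that is, had an adjusted p below 0.1 by the quasi-likelihood F test of edgeR, with Benjamini-Hochberg adjustment over all 15454 genes tested. That was 12.5% of the tested SLC25 genes, beside 7.01% of all genes tested. Slc25a1, the citrate carrier, and Slc25a33, a pyrimidine nucleotide carrier, were higher in the training hearts, 2 of 40 or 5% beside 2.75% of all genes. Lower in the training hearts were Slc25a20, the carnitine-acylcarnitine carrier, Slc25a34, whose substrate is unknown, and Slc25a46, an outer-membrane member with a part in mitochondrial dynamics. These 3 made up 7.5% of the tested genes, beside 4.26% of all genes. Slc25a4 and Slc25a3, the carriers of ADP and ATP and of phosphate with the highest levels, were not called.

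The stretches of genome just before the starts of called genes are shown so that the genes behind the results can be seen as sequence. Each is up to 250 bases upstream of the start of the canonical GENCODE transcript, on GRCm39 and written 5′ to 3′ along the gene's own strand, and none of them overlaps an annotated exon. Capitals mark every match, on either strand, to 4 short motifs: the E-box CACGTG, the nuclear receptor core site AGGTCA, the GC box GGGCGG and the CCAAT box CCAAT. That of Slc25a20 stops at 203 bases, where an exon of another transcript begins.
Slc25a1 chr16:17746246-17746495 (minus strand): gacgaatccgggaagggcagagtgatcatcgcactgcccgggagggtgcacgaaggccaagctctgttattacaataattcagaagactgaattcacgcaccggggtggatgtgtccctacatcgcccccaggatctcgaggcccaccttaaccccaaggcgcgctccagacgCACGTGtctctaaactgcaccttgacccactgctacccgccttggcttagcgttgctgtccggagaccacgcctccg
Slc25a20 chr9:108539047-108539249 (plus strand): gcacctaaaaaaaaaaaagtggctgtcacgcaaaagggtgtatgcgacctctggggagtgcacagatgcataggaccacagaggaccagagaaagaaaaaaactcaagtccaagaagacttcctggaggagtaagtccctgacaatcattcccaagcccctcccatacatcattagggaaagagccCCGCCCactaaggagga
Slc25a34 chr4:141351152-141351401 (minus strand): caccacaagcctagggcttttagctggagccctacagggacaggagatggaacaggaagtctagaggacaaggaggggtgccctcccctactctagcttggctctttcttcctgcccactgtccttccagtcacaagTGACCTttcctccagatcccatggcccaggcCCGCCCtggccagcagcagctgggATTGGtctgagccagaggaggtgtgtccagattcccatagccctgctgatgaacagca

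Among the 40 tested genes, 7 held the palindrome CACGTG in the full 250-base window, or 17.5%, beside 7.67% of the 13562 tested protein-coding genes. Slc25a1 and Slc25a46 were the called genes with it. The GC box was found in 21 of 40 windows beside 48.3% of all, and CCAAT in 15 of 40 beside 35.6%. AGGTCA, whose reverse complement is the TGACCT in capitals in the Slc25a34 sequence, was found in 5 of 40 beside 11.5%. No SLC25 window held TCAAGGTCA, the longer estrogen-related receptor element that contains AGGTCA, which was present in 0.324% of all windows, and GCATGC, the core of the NRF1 site, was found in 1 window beside 7.14% of all. A match describes letters in a window and says nothing about binding.

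Levels of different genes were compared on the authors' TPM scale, which divides by transcript length. Of the 47 genes, 38 had a mean of at least 1 TPM over the 10 hearts, 21 at least 10 TPM and 5 at least 100 TPM. Slc25a4, the ADP/ATP carrier of heart and muscle, led with a mean of 2468 TPM. Slc25a3, which brings phosphate into the matrix, followed with 1204 TPM. Slc25a11, the 2-oxoglutarate carrier of the malate-aspartate shuttle, stood at 276 TPM, ahead of Slc25a5, the ADP/ATP carrier of most other tissues, with 226 TPM, and Slc25a12, the aspartate-glutamate carrier also called aralar, with 106.8 TPM. The order Slc25a4, Slc25a3, Slc25a11, Slc25a5, Slc25a12 held in 10 of 10 hearts. The carriers for ADP, ATP and phosphate together held 79.2% of the summed TPM of the family.

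Below these the neighbours in rank came close to each other. Slc25a20 had a mean of 96.4 TPM and Slc25a39, the glutathione carrier, 84.9 TPM, and Slc25a12 exceeded Slc25a20 in 8 of 10 hearts. Slc25a34 stood at 81.4 TPM and was exceeded by Slc25a39 in 6 of 10 hearts, so that the order of those 2 did not hold across hearts. Slc25a13, the other aspartate-glutamate carrier, had 46.04 TPM and Slc25a22, a glutamate carrier, 34.3 TPM, in this order in 10 of 10 hearts.

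**Figure D1:**
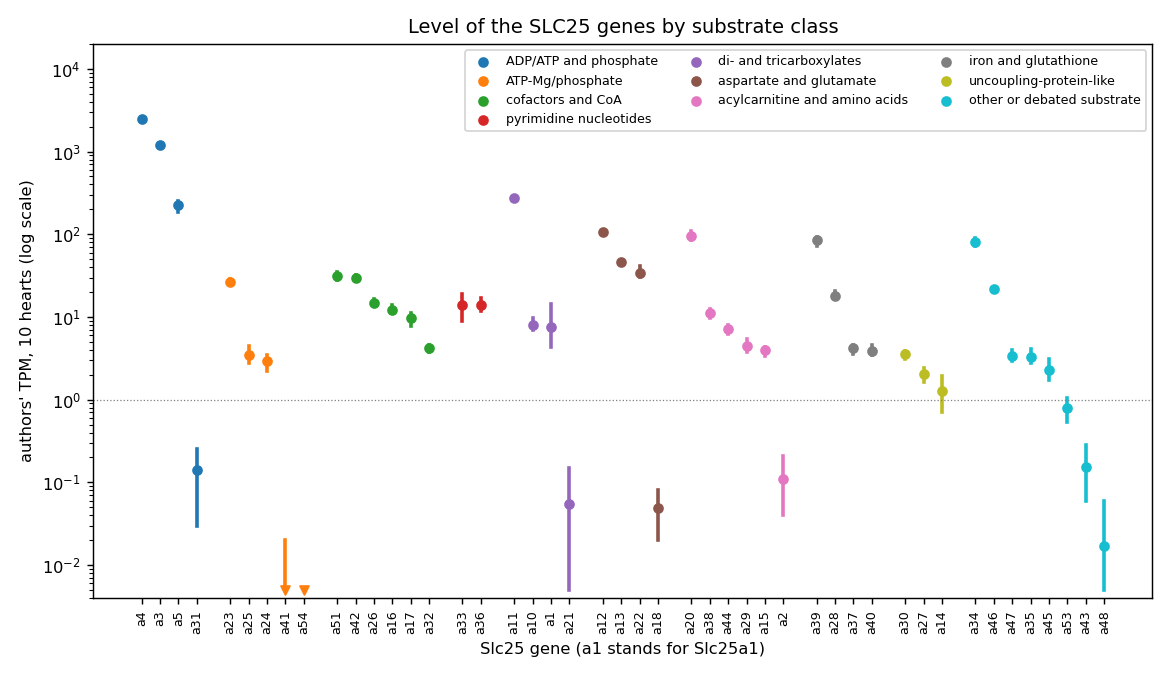
Mean level of 46 SLC25 genes over the 10 hearts (points) with the lowest and highest heart (lines), in the authors' TPM on a log axis, grouped by substrate. Triangles mark Slc25a41 (mean 0.002 TPM) and Slc25a54 (0 TPM), drawn near the lower end of the axis and not at their means. The dotted line marks 1 TPM. Slc25a4 and Slc25a3 stand above every other carrier, at 2468 and 1204 TPM.

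At the other end, 7 genes were not tested. Slc25a54 had no read in any heart, which allows 3 counts, or 0.0745 to 0.0995 CPM by counting error alone, and Slc25a41 had at most 1 read in a heart; both are relatives of the ATP-Mg/phosphate carriers. Slc25a2, an ornithine carrier, had 2 to 5 reads, Slc25a18, the second glutamate carrier, 2 to 8, Slc25a21, the oxodicarboxylate carrier, 0 to 5, Slc25a43, with no settled substrate, 2 to 11, and Slc25a48, assigned to choline transport, 0 to 6. At this depth a difference between the groups was not detectable. Slc25a31, the ADP/ATP carrier of testis, passed the filter with 4 to 16 reads a heart and 0.142 TPM. Its level was 0.344 ± 0.112 CPM (reads scaled to a common library size, SD, n = 5) in training and 0.237 ± 0.0944 CPM (n = 5) in sedentary hearts, with a 95% interval of the log2 fold change from -0.17 to 1.23.

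The training libraries held 29461697 to 35945417 counts on genes and the sedentary libraries 35196993 to 39431030, a difference in depth with p = 0.0238 in a two-sided exact permutation test. Cardiomyocyte markers were abundant in every heart: 6 genes, Myh6 among them, summed to 44616 to 47765 CPM in training and 46059 to 51845 CPM in sedentary hearts, and 0 of 6 were called by edgeR, with an unadjusted p below 0.05 for 2, whereas DESeq2 called 3 of 6, Myh6 among them. All 6 atrial markers were above 0 on the log2 fold scale and 2 were called higher, Sln at 0.75 with adjusted p = 0.0316 and Dkk3 at 0.73 with adjusted p = 0.0278 (edgeR). Their sum was 5053 to 7617 CPM in training and 2789 to 6837 CPM in sedentary hearts. Adipocyte markers summed to 38.4 to 198 CPM in training and 38.3 to 153 CPM in sedentary hearts and erythroid markers to 39.1 to 98.9 and 60.4 to 142 CPM, with 0 of 5 tested called in each by edgeR or DESeq2 and an unadjusted p below 0.05 for 0 adipocyte and 1 erythroid marker in edgeR. Fibroblast markers had 1 of 4 called higher by edgeR (Pdgfra, log2 fold change 0.24, adjusted p = 0.0627) and 2 by DESeq2, Pdgfra and Tcf21, at 821 to 1013 and 732 to 884 CPM in sum, and endothelial markers 0 of 4 called by either tool, with an unadjusted p below 0.05 for 1, at 626 to 688 and 694 to 733 CPM. Of the skeletal muscle markers, Acta1, which the heart also expresses, was called lower by edgeR (log2 fold change -0.84, adjusted p = 0.0935) and not by DESeq2 (adjusted p = 0.139), while Myh1, Myh2 and Myh4 were near 0 CPM. The other tested markers of that list went the other way and were called by neither tool. Tnnt3 was at a log2 fold change of 0.43 (adjusted p = 0.637, edgeR) and Actn3 at 0.49 (0.252). In whole tissue, a smaller number of cells of a type and less RNA in each such cell cannot be told apart.

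Slc25a20 (ENSMUSG00000032602, GRCm39 chr9:108539250-108562760, plus strand) carries acylcarnitines into the matrix in exchange for carnitine, the step between the carnitine palmitoyltransferases of the outer and the inner membrane. Its level in training hearts 1 to 5 was 159, 137, 147, 153 and 145 CPM, and in sedentary hearts 1 to 5 it was 167, 190, 168, 185 and 162 CPM. All training hearts lay below all sedentary hearts, with training heart 1 and sedentary heart 5 the closest. The means were 148 ± 8.39 and 174 ± 12.0 CPM (SD, n = 5 each), a log2 fold change of -0.23 with SE 0.053 and adjusted p = 0.0354 (edgeR), or 14.8% lower. In the main edgeR fit this was the only SLC25 gene called at an FDR below 0.05. It was called at an FDR below 0.1 whichever of the 10 hearts was left out. DESeq2 gave it an adjusted p of 0.0037. That tool also put Slc25a46 (0.0112), Slc25a34 (0.0152), Slc25a1 (0.0304) and Slc25a12 (0.0477) below 0.05. On the authors' TPM, which is not adjusted for RNA composition, the training hearts ran from 85.3 to 94.0 and the sedentary hearts from 91.3 to 108, so that the lowest sedentary heart fell within the training range.

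Slc25a46 (ENSMUSG00000024259, chr18:31689155-31742990, minus strand) sits in the outer membrane, unlike most of the family. It was measured at 86.9, 88.1, 80.9, 81.1 and 88.4 CPM in training hearts 1 to 5 and at 92.8, 96.6, 94.9, 94.5 and 91.9 CPM in sedentary hearts 1 to 5. The groups did not overlap, and the spread within each was narrow. The log2 fold change was -0.15 with SE 0.039 and adjusted p = 0.0570 (edgeR; 85.1 ± 3.78 against 94.1 ± 1.85 CPM, n = 5 each). Slc25a20 and Slc25a46 were the only SLC25 genes without overlap between the groups, 2 of 40 or 5% of those tested, beside 5.06% of all genes. The call for Slc25a46 was lost with library totals as the only scaling (log2 fold change -0.09, adjusted p = 0.195), with reads of both strands counted (adjusted p = 0.124) and without training hearts 3 (0.134) or 4 (0.141) or sedentary hearts 2 (0.123), 3 (0.143) or 4 (0.110). Its exons overlap those of the antisense gene B930094E09Rik. On the authors' TPM its groups overlapped, at 20.0 to 22.7 in training and 20.8 to 23.03 in sedentary hearts.

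Slc25a34 (ENSMUSG00000040740, chr4:141346130-141351151, minus strand) is a carrier of unknown substrate that is abundant in heart. The training hearts 1 to 5 had 200, 176, 172, 178 and 208 CPM and the sedentary hearts 1 to 5 had 199, 239, 206, 245 and 226 CPM. Training hearts 1 and 5 lay within the sedentary range, at its lower end, and the other 3 below it. The means of 187 ± 16.1 and 223 ± 20.0 CPM (n = 5 each) gave a log2 fold change of -0.25 with SE 0.068 and adjusted p = 0.0597 (edgeR). This call was lost without training hearts 3 (adjusted p = 0.140) or 4 (0.137) or sedentary hearts 2 (0.131), 4 (0.129) or 5 (0.105).

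Slc25a1 (ENSMUSG00000003528, chr16:17743075-17746245, minus strand) exports citrate from the matrix, where it feeds the synthesis of fatty acids and sterols. The values were 10.2, 8.13, 16.2, 19.8 and 10.8 CPM in training hearts 1 to 5, and 8.79, 7.88, 6.76, 6.63 and 8.03 CPM in sedentary hearts 1 to 5. The sedentary hearts lay close together, the training hearts were spread widely with hearts 3 and 4 highest, and training heart 2 fell within the sedentary range. The means of 13.0 ± 4.82 and 7.62 ± 0.913 CPM (n = 5 each) gave the largest fold change among the tested SLC25 genes, 1.71-fold or 0.77 on the log2 scale, with SE 0.20 and adjusted p = 0.0521 (edgeR). The call was lost without training hearts 3 (log2 fold change 0.68, adjusted p = 0.129) or 4 (0.57, 0.107) or sedentary hearts 3 (0.74, 0.119) or 4 (0.73, 0.110). The summed adipocyte markers were 59.4, 38.4, 99.1, 198 and 104 CPM in training hearts 1 to 5 and 153, 39.5, 38.3, 68.7 and 63.0 CPM in sedentary hearts 1 to 5, so that training heart 4 was highest in both measures. Their part in the result was not tested.

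Slc25a33 (ENSMUSG00000028982, chr4:149828491-149858751, minus strand) brings pyrimidine nucleotides into the matrix for mitochondrial DNA and RNA synthesis. It had 34.3, 24.5, 31.1, 26.2 and 28.7 CPM in training hearts 1 to 5 and 15.7, 28.6, 15.8, 23.3 and 21.5 CPM in sedentary hearts 1 to 5. Sedentary heart 2 lay within the training range, and sedentary hearts 1 and 3 were lowest. The means of 28.95 ± 3.90 and 20.98 ± 5.45 CPM (n = 5 each) gave a log2 fold change of 0.47 with SE 0.15 and adjusted p = 0.0994 (edgeR), next to the threshold. It stayed called in 2 of the 10 fits without 1 heart, those without training heart 2 or sedentary heart 2, and its adjusted p reached 0.199 without sedentary heart 3; the other fits that lost it gave 0.176, 0.195, 0.140 and 0.155 without training hearts 1, 3, 4 and 5, and 0.132, 0.126 and 0.144 without sedentary hearts 1, 4 and 5.

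**Figure D2:**
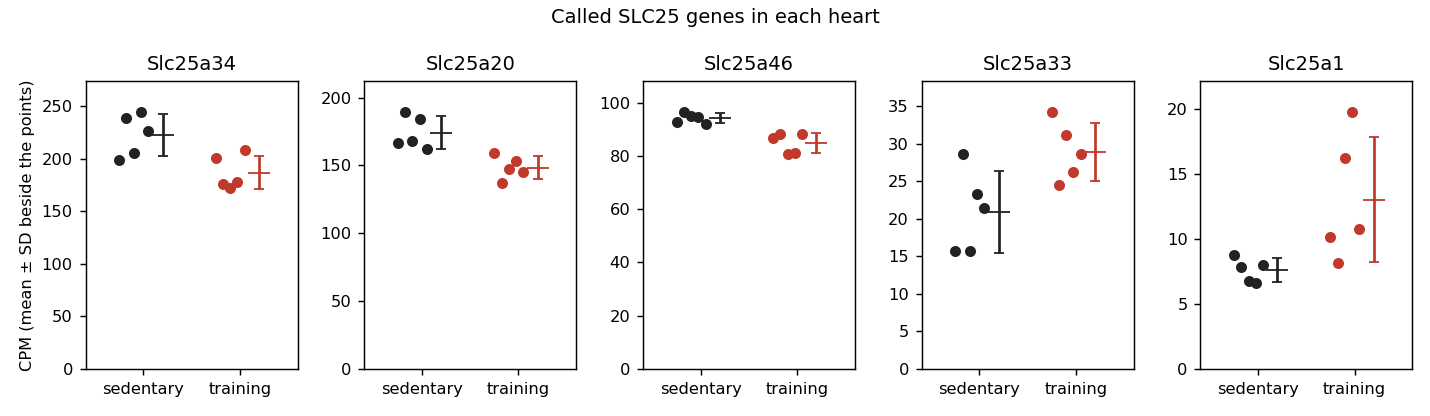
Level of the 5 called SLC25 genes in CPM in each heart, sedentary in black and training in red, with the group mean and SD beside the points; every axis starts at 0. Slc25a20 and Slc25a46 show no overlap between the groups, while training hearts 3 and 4 carry the highest values of Slc25a1, 16.2 and 19.8 CPM.

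The atrial markers moved with the groups, and the calls were repeated with their mean log2 level in each heart as a covariate. No SLC25 gene was called in that edgeR fit, 0 of 40, beside 0.608% of all genes tested. In the same fit 7 of the 40 had an unadjusted p below 0.05, beside 1755 of all 15454 genes tested. The log2 fold changes kept their sign, at -0.22 for Slc25a20 (adjusted p = 0.250), -0.12 for Slc25a46 (0.419), -0.17 for Slc25a34 (0.480), 0.59 for Slc25a1 (0.433) and 0.71 for Slc25a33 (0.151). Among uncalled genes, the covariate moved, for example, Slc25a13 from -0.10 to -0.012, Slc25a23 from -0.02 to -0.09, Slc25a24 from 0.21 to 0.034, Slc25a47 from -0.28 to -0.45 and Slc25a51 from 0.02 to 0.06. The marker calls for Pdgfra and Acta1 were lost in that fit too. Those for Sln and Dkk3 were also lost, but both genes are part of the score, so the fit cannot test them. Because the score differed between the groups, the covariate and training cannot be told apart. All 5 called genes also kept their direction with library totals as the only scaling, which changed the split of all called genes from 425 higher and 659 lower to 1029 higher and 339 lower.

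**Figure D3:**
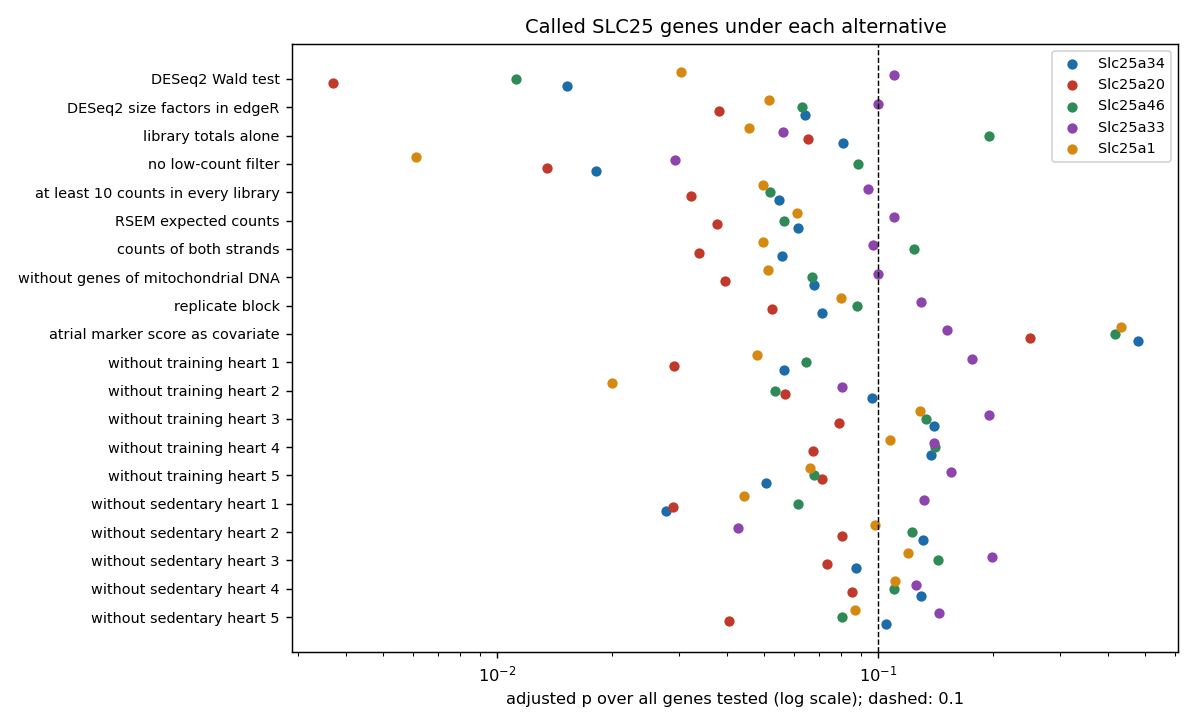
Adjusted p of the 5 called SLC25 genes (colours) under each alternative processing or with 1 heart left out, on a log axis, with the threshold of 0.1 dashed. Slc25a20 stays left of the threshold in every line but that of the atrial covariate, where all 5 genes lie to its right.

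Over all 40 tested genes the changes were small. The log2 fold change was above 0 for 14 and below 0 for 26, with a median of -0.027 beside 0.00026 for all genes tested. The median size of the change, regardless of sign, was 0.095 beside 0.092 for all genes. The 95% interval lay within 0.3 of 0 on the log2 scale for 26 of the 40. An unadjusted p below 0.05 was found for 12 of 40, or 30%, beside 20.0% of all genes. Beside the 5 called genes, those included Slc25a12, Slc25a16, Slc25a24, Slc25a25, Slc25a42 and Slc25a47. DESeq2 called 6 of the 40, namely Slc25a12, Slc25a16 and the called genes other than Slc25a33, beside 9.53% of all genes called by that tool.

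The carriers for ADP, ATP and phosphate had 0 of 4 called by either edgeR or DESeq2, and none had an unadjusted p below 0.05. Slc25a4 was at 4077, 3731, 3412, 3718 and 3449 CPM in training hearts 1 to 5 and at 3845, 4093, 4091, 3954 and 3670 CPM in sedentary hearts 1 to 5. The ranges overlapped, and the log2 fold change was -0.10 with a 95% interval from -0.22 to 0.03. Slc25a3 gave -0.02, with an interval from -0.12 to 0.08, and Slc25a5 gave -0.05, from -0.17 to 0.08. In TPM the family summed to 4783 to 4987 in training and 4557 to 5145 in sedentary hearts, again overlapping.

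The aspartate and glutamate carriers had 0 of 3 called by edgeR and 1 by DESeq2, and all 3 lay below 0. Slc25a12 was at 235 ± 6.30 CPM in training and 250 ± 4.30 CPM in sedentary hearts (SD, n = 5 each), with a log2 fold change of -0.09 and adjusted p = 0.153 (edgeR); DESeq2 gave adjusted p = 0.0477. Slc25a13 was at -0.10 (adjusted p = 0.252) and Slc25a22 at -0.18 (adjusted p = 0.250). Among the di- and tricarboxylate carriers Slc25a1 was called, whereas Slc25a11 was at -0.07 and Slc25a10, which exchanges malate and succinate for phosphate, at 0.06.

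The acylcarnitine and amino acid carriers had 1 of 5 called, Slc25a20. Slc25a38, which carries glycine for haem synthesis, was at 0.10 with adjusted p = 0.381, Slc25a44, a carrier of branched-chain amino acids, at -0.03 with 0.786, Slc25a29, a carrier of basic amino acids, at -0.19 with 0.331, and Slc25a15, the ornithine carrier of the urea cycle, at -0.01 with 0.971. The exons of Slc25a29 and Slc25a47 overlap on opposite strands, and the counts used here keep the strands apart.

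The ATP-Mg/phosphate carriers had 0 of 3 called by either tool, with an unadjusted p below 0.05 for 2. Slc25a25, a calcium-regulated member, had 7.67 ± 0.597 CPM in training and 9.59 ± 2.10 CPM in sedentary hearts (n = 5 each), with adjusted p = 0.181 (edgeR). Its highest values were 12.5 and 10.8 CPM in sedentary hearts 4 and 5, and without sedentary heart 1 it would be called (log2 fold change -0.41, adjusted p = 0.0502). Slc25a24, another calcium-regulated member, was at 10.3 ± 0.588 and 8.90 ± 0.997 CPM (log2 fold change 0.21, adjusted p = 0.163; 0.0846 without sedentary heart 1), but at a log2 fold change of 0.034 with the atrial covariate (adjusted p = 0.909), and Slc25a23 was at -0.02.

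The cofactor carriers had 0 of 7 called by edgeR and 1 by DESeq2, with an unadjusted edgeR p below 0.05 for 3 and log2 fold changes from -0.12 to 0.14. Slc25a16, which has been tied to coenzyme A, was highest at 0.14 with adjusted p = 0.127 in edgeR and 0.0874 in DESeq2; it was called with library totals alone (0.0380) and without training heart 3 (0.0894). Slc25a42, a coenzyme A carrier, was lowest at -0.12 (adjusted p = 0.193). Slc25a51, the NAD carrier, was at 0.02, with an interval from -0.05 to 0.10. Slc25a26, the carrier of S-adenosylmethionine, was at 0.09, Slc25a17, a peroxisomal member of the family, at 0.06, and Slc25a32, a folate or flavin carrier, at -0.01.

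The iron and glutathione carriers had 0 of 4 called by either tool, and none had an unadjusted p below 0.05. The mitoferrins Slc25a37 and Slc25a28, which import iron, were at -0.02 and -0.01, and Slc25a39 and Slc25a40, the glutathione carriers, both at -0.08. Slc25a39 was called without training heart 2 only (-0.12, adjusted p = 0.0960). The uncoupling-protein-like members likewise had 0 of 3 called and none with an unadjusted p below 0.05, with Slc25a30 at -0.03, Slc25a27 at 0.04 and Slc25a14 at 0.28 (adjusted p = 0.319). Slc25a36, the other pyrimidine nucleotide carrier, was at 0.10 (adjusted p = 0.294). Of the 6 tested members with other or debated substrates, 2 were called lower, Slc25a34 and Slc25a46, and the values of the other 4 were -0.28 for Slc25a47 (adjusted p = 0.175), -0.15 for Slc25a45 (0.540), -0.05 for Slc25a35 (0.810) and 0.03 for Slc25a53 (0.924). For Slc25a35, 82.9% of the counts on either strand were on the opposite strand, where Rangrf and Gm74116 overlap it.

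**Figure D4:**
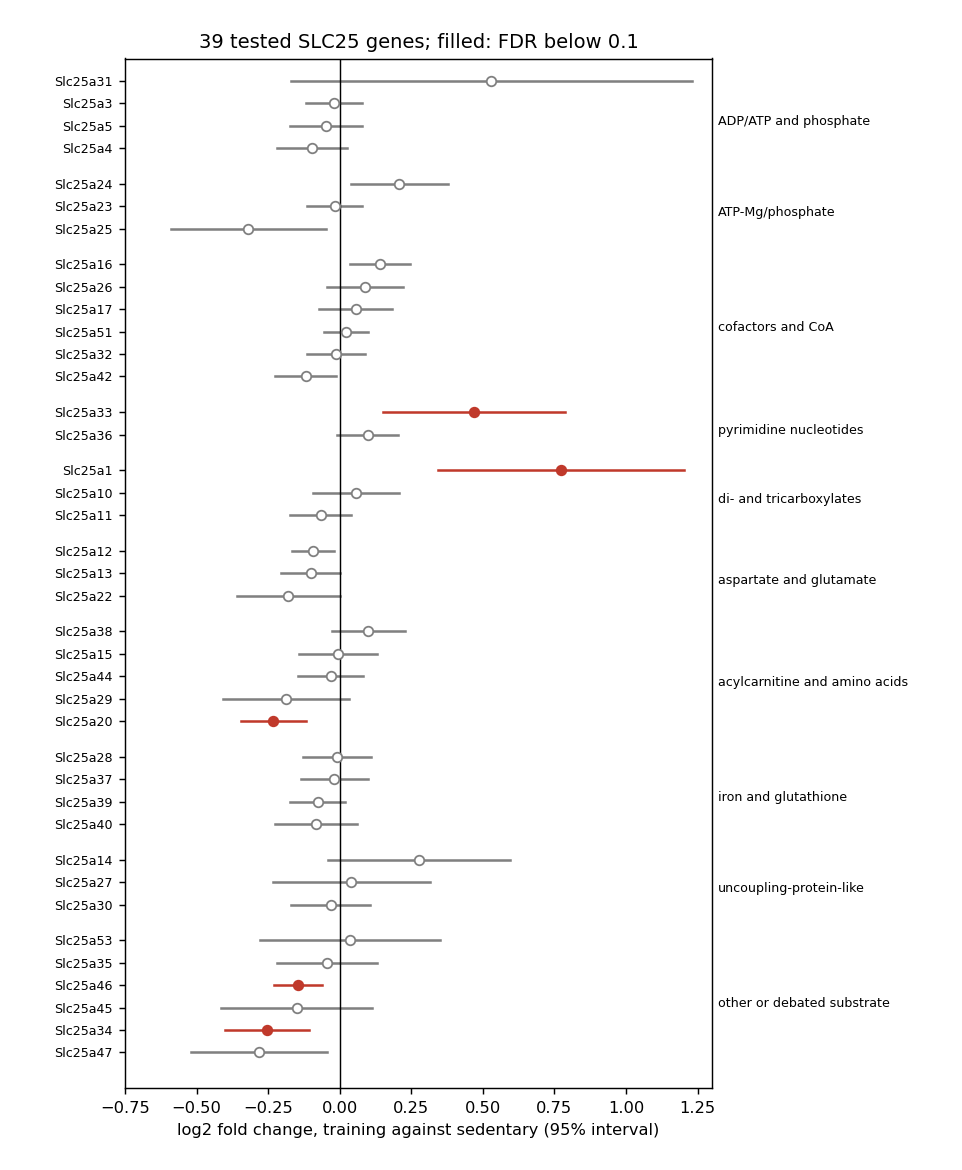
Log2 fold change, training against sedentary, of 39 of the 40 tested SLC25 genes with 95% intervals from edgeR, grouped by substrate; filled red points were called. The 5 called genes are Slc25a1 and Slc25a33 to the right of 0 and Slc25a20, Slc25a34 and Slc25a46 to its left, and most other intervals cross 0.

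Related carriers were also compared within each heart, as the log2 ratio of their counts, which does not depend on library scaling. Over 8 ratios, the two-sided exact permutation test has a smallest possible p of 0.00794, and p-values were adjusted over the 8. The ratio of Slc25a11 to Slc25a10, both dicarboxylate carriers, was 4.81, 4.77, 4.80, 4.62 and 4.86 in training hearts 1 to 5 and 4.90, 4.88, 4.90, 4.91 and 4.88 in sedentary hearts 1 to 5 on the log2 scale. All training hearts lay below the narrow sedentary range, although neither gene was called alone. The difference was -0.12 with exact p = 0.00794 and adjusted p = 0.0635, below the threshold of 0.1.

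The ratio of Slc25a23 to Slc25a24, calcium-regulated ATP-Mg/phosphate carriers, was 2.46, 2.54, 2.38, 2.47 and 2.45 in training hearts 1 to 5 and 2.61, 2.80, 2.50, 2.73 and 2.81 in sedentary hearts 1 to 5. Only sedentary heart 3 came within the training range. The difference was -0.23, with exact p = 0.0159 and adjusted p = 0.0635. The adjusted p was 0.127 in each fit without training heart 1, 3, 4 or 5, above the threshold of 0.1.

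The other 6 ratios were not called. That of Slc25a36 to Slc25a33 differed by -0.40 (exact p = 0.0952, adjusted p = 0.254), or by -0.50 without sedentary heart 2 (adjusted p = 0.0847). That of Slc25a4 to Slc25a5 differed by -0.05 (exact p = 0.278, adjusted p = 0.556). RSEM, which shares out reads that match several genes, gave 1.10 times the unique counts for Slc25a5 and 1.15 times for Slc25a36. Part of their reads may thus not be unique, but the source of the excess was not tested. The ratios Slc25a12 to Slc25a13, Slc25a37 to Slc25a28, Slc25a39 to Slc25a40 and Slc25a22 to Slc25a18 each had an adjusted exact p of 0.976, and the last rests on the few reads of Slc25a18.

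**Figure D5:**
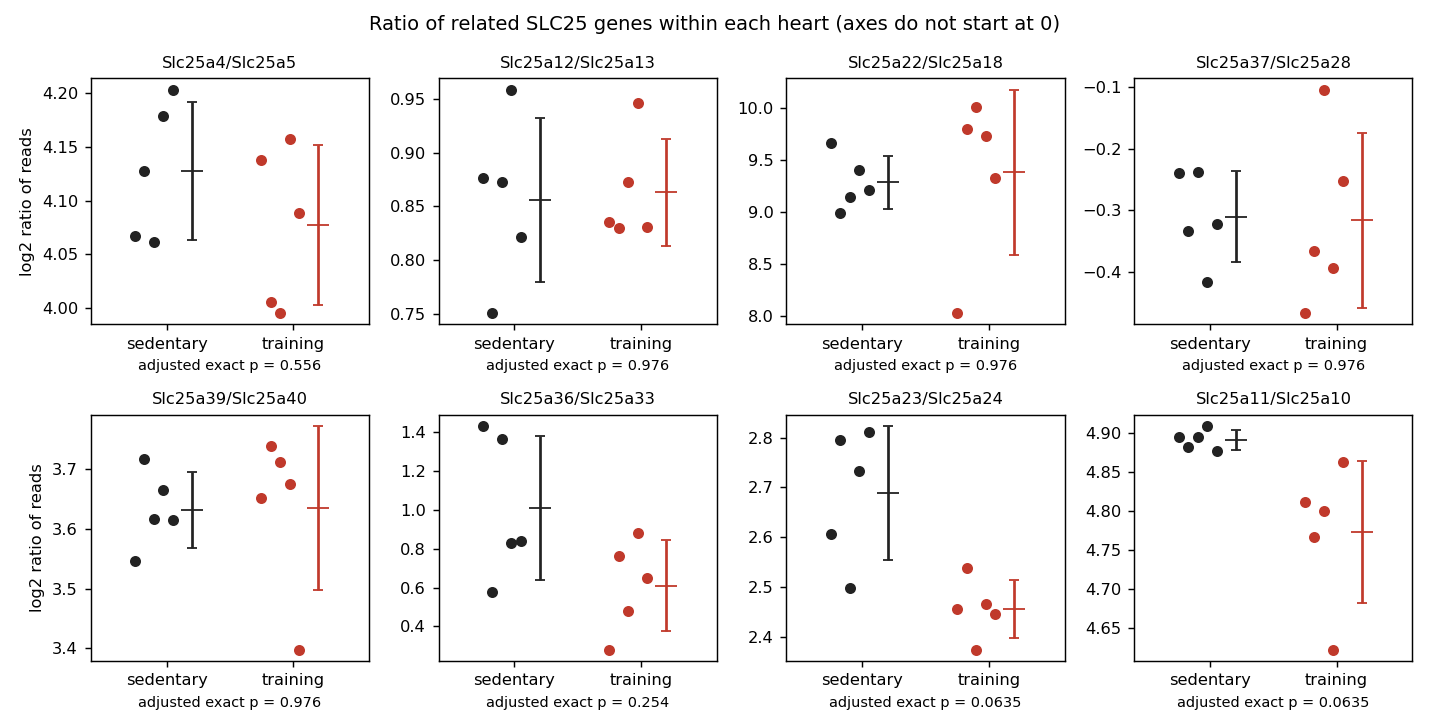
Log2 ratio of the counts of 8 pairs of related SLC25 genes in each heart, sedentary in black and training in red, with the mean and SD beside the points; axes do not start at 0. The ratio of Slc25a11 to Slc25a10 shows no overlap, with sedentary hearts between 4.88 and 4.91.

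Genes that work beside the carriers were taken from lists. Of 9 enzymes of the malate-aspartate and carnitine shuttles, 0 were called higher and 2 lower, beside 4.26% of all genes called lower. Cpt2, the inner-membrane carnitine palmitoyltransferase that takes up the acylcarnitines delivered by Slc25a20, was at 195 ± 5.49 CPM in training and 236 ± 13.3 CPM in sedentary hearts (n = 5 each), a log2 fold change of -0.28 with adjusted p = 0.0088 (edgeR). Got1, the cytosolic aspartate aminotransferase, was at 838 ± 38.1 and 943 ± 44.7 CPM, at -0.17 with adjusted p = 0.0646. Carnitine acetyltransferase, Crat, did not pass in edgeR, with -0.14 and adjusted p = 0.145, and passed in DESeq2. Cpt1a, another carnitine palmitoyltransferase, went the other way, at 0.11 (adjusted p = 0.184, edgeR). An unadjusted edgeR p below 0.05 was found for 4 of the 9, these being Cpt1a, Cpt2, Crat and Got1, beside 20.0% of all genes. The log2 fold change was above 0 for 2 of the 9 and below 0 for 7. Mdh1, Mdh2 and Got2 were at -0.05, -0.08 and -0.05, with adjusted p from 0.354 to 0.641. With the atrial covariate 0 of the 9 were called, Cpt2 being at -0.21 (adjusted p = 0.139) and Got1 at -0.14 (0.404).

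Of 10 genes of the import route for carriers, 0 were called higher and 1 lower, beside 2.75% and 4.26% of all genes. The called gene was Tomm70a, the outer-membrane receptor for carrier precursors, at a log2 fold change of -0.16 with adjusted p = 0.0884 (edgeR). With the atrial covariate it was at -0.14 (adjusted p = 0.439) and not called. The log2 fold change was below 0 for 8 of the 10. An unadjusted edgeR p below 0.05 was found for 4 of the 10, beside 20.0% of all genes. Of 11 other mitochondrial transporters, 0 were called by edgeR and DESeq2 called 1, Sfxn1. The log2 fold change was above 0 for 6 of the 11 and below 0 for 5. An unadjusted edgeR p below 0.05 was found for 4 of the 11, beside 20.0% of all genes. Sfxn1 and Sfxn2 were above 0, at 0.26 (adjusted p = 0.144, edgeR) and 0.21 (0.233). Mpc1 and Mpc2, the pyruvate carrier subunits, were below it, at -0.15 (adjusted p = 0.147) and -0.17 (0.160). The channel Vdac1 was at -0.05 (0.625). Of the 5 family members with other symbols, 4 were tested and 0 called by either tool, none with an unadjusted p below 0.05, with Ucp2 at -0.01, Ucp3 at -0.08, Mtch1 at 0.02 and Mtch2 at -0.04. Ucp1, the uncoupling protein of brown fat, was not tested. It was at 1.91 ± 2.61 CPM in training and 0.180 ± 0.281 CPM in sedentary hearts (SD, n = 5 each), and reached 6.35 CPM in the highest heart, a training heart.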

How the data were processed

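RNA of 5 training and 5 sedentary mouse hearts had been sequenced from directional poly-A libraries as single reads in 1 pool. Per-gene counts from STAR 2.7.10a on GRCm39, of reads with a single match and neither normalized nor filtered, were deposited for each strand. The authors also deposited RSEM 1.3.3 expected counts and TPM, with RSEM's strand setting not given in the sources used here. Tools are as the submitters' processing notes name them.

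Reverse-strand counts were used, 94.9% to 95.6% of counts on either strand. Multimapping reads, 17.9% to 19.2% of reads, and reads on no gene, 4.15% to 4.89%, are no gene and were left out. Genes were named by GENCODE M39, which matched 56017 of 56748 identifiers. Tests used edgeR 4.0.16 in R 4.3.3: filterByExpr, TMM, the quasi-likelihood F test over 15454 genes, Benjamini-Hochberg adjustment and an FDR below 0.1. CPM use TMM-corrected library sizes. The ratios used a pseudocount of 0.5 and an exact permutation test over 252 assignments. Expected counts were rounded. The fit was tested on simulated counts. Alternatives included DESeq2 1.42.0, other scalings and filters, an atrial covariate and leaving out each heart. The SLC25 genes, substrate classes, ratios and lists were chosen with earlier results of these data known. Every called gene, the members of the ratios and the 10 genes of highest TPM are described with values, the others by class. Promoter windows were read from GRCm39. The values of 1 SLC25 gene and 1 upstream sequence are not reported here, though the gene is in all counts. Intervals are at 95%.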

Additional observations from a re-analysis of the deposited data

Results flagged for a closer look

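Of 96 groups of 5 hearts examined for a heart standing apart from the other 4, over the levels of the SLC25 genes and their ratios, 5 or 5.21% had one. Chance alone gives about 1 in 20. In sedentary heart 1, Slc25a14 was at 1.99 CPM, with the other sedentary hearts at 1.34 to 1.48 CPM. In sedentary heart 2, Slc25a35 was at 6.48 CPM, with the others at 5.89 to 6.03 CPM. In sedentary heart 5, Slc25a45 was at 3.84 CPM, with the others at 4.69 to 4.88 CPM. In training heart 1, Slc25a53 was at 1.98 CPM, with the others at 1.43 to 1.46 CPM. The log2 ratio of Slc25a39 to Slc25a40 was 3.40 in training heart 5 and 3.65 to 3.74 in the other training hearts.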

How the results depend on the processing

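The count of SLC25 genes called higher, 2, became 1 with RSEM expected counts and 1 with the mouse number as a replicate block. It became 3 with library totals alone, 0 with the atrial covariate and 0 at an FDR below 0.05, and ran from 0 to 2 when 1 heart was left out. The count called lower, 3, became 4 with DESeq2, 2 with library totals alone and 2 with both strands counted. It became 0 with the atrial covariate and 1 at an FDR below 0.05, and ran from 1 to 4 with 1 heart left out. The median log2 fold change of the 40 genes was 0.027 with library totals alone, beside 0.053 for all genes. It ran from -0.044 to -0.019 with 1 heart left out. Of the 5 called genes, Slc25a33 was lost in DESeq2 (adjusted p = 0.110), with expected counts (0.110) and in the block (0.129), which changed no other call among the 40. Same-numbered mice did not deviate together, with correlations from -0.097 to 0.159, so the numbers were not read as pairs. The ratio of Slc25a39 to Slc25a40 differed by -0.027 with expected counts and the ratio of Slc25a22 to Slc25a18 by -0.34 with both strands counted, both reversed and neither past the threshold; the cause was not tested. With 1 heart left out the differences in the ratios ran from -0.071 to -0.03 for Slc25a4 to Slc25a5, from -0.019 to 0.033 for Slc25a12 to Slc25a13, from -0.060 to 0.44 for Slc25a22 to Slc25a18, from -0.059 to 0.031 for Slc25a37 to Slc25a28, from -0.023 to 0.062 for Slc25a39 to Slc25a40, from -0.50 to -0.29 for Slc25a36 to Slc25a33, from -0.28 to -0.20 for Slc25a23 to Slc25a24 and from -0.14 to -0.081 for Slc25a11 to Slc25a10. Without a pseudocount no ratio changed its call. With 5 hearts a group the tests could miss changes of the size seen here, 7 genes had too few reads to test, and counting covers unique reads only.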
